A study of Anas platyrhynchos with 11 samples.

Results

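The genes that build, sulfate and carry glycosaminoglycans were compared between Meissner corpuscles and bill skin of the duck (Anas platyrhynchos). Members were taken by gene name alone. They were the rows whose symbol began with CHST, HS2ST, HS3ST, HS6ST, CSGALNACT, CHSY, CHPF, EXTL, NDST, XYLT or B3GAT, together with EXT1, EXT2, the hyaluronan synthases (HAS), SULF1, SULF2, the glypicans (GPC) and the syndecans (SDC). This gave 54 of the 16823 genes in the table, and all 54 passed the filter on low counts.

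Heparan and chondroitin sulfate are long sugar chains that are attached to serines of core proteins through a short linker, lengthened by polymerases and then decorated with sulfate. The pattern of sulfate sets which growth factors, guidance cues and matrix proteins a chain binds. Hyaluronan is made at the plasma membrane without a core protein or sulfate and gives skin and nerve sheaths a hydrated matrix. The roles named below are those known from mammals.

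In a Meissner corpuscle, an end organ of touch, an axon terminal is enclosed by lamellar cells. The 5 corpuscle libraries were made from corpuscles drawn by hand into a pipette, 2 to 10 per sample, with RNA integrity numbers of 6.1 to 8.0. The 6 skin libraries were made from neighbouring bill skin cells collected without corpuscles. The labels give no treatment, genotype, strain, sex or age. They name 3 independent skin isolations for the study but do not tie libraries to them. The spread that the p-values measure is therefore that between these libraries, which may be technical. A low-input kit served every corpuscle library and a messenger RNA kit every skin library, which means that effects of tissue and of kit cannot be told apart. These are bulk samples, in which fewer cells of a type and less RNA per cell cannot be told apart.

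Total counts ran from 5766279 to 11886808 in corpuscles and from 13263776 to 20925841 in skin. Corpuscle 4 had the lowest total, and the next lowest, corpuscle 2, had 11241654. Levels are in CPM, counts scaled to the library total after its TMM adjustment. On this scale 3 counts, the floor for a single library, equal 0.135 to 0.476 CPM. All 10 Merkel cell markers were higher in corpuscles, with a summed level of 14468 to 79225 CPM against 956 to 2077 CPM in skin. Of 10 Schwann and glial markers tested, 0 were higher and 6 lower in corpuscles, summing to 1028 to 2018 CPM against 1987 to 3331 CPM, and S100B was listed with no read in any library. Endothelial markers summed to 44.7 to 127 CPM in corpuscles and 1089 to 1479 CPM in skin. Fibroblast markers summed to 13999.7 to 45618 CPM in corpuscles and 49939.6 to 81442 CPM in skin. Corpuscles 4 and 5 stood apart from the other corpuscles on the second principal component, which held 12.5% of variance (scores of -124 and -35.5, against 53.2 to 59.5). Skin 5 and 6 also had negative scores (-15.1 and -19.3), while skin 1 to 4 were at 2.61 to 10.8. What set these libraries apart in both tissues was not tested. Corpuscles 4 and 5 had the highest fibroblast sums of the corpuscles, and corpuscle 4 had the lowest Merkel sum. These sums rest largely on the most abundant markers, CHGB for Merkel cells and COL1A1, COL1A2 and COL3A1 for fibroblasts.

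Of the 54 genes, 11 were higher and 16 were lower in corpuscles by edgeR's quasi-likelihood test at a Benjamini-Hochberg adjusted p under 0.05, and 27 were not called. These counts correspond to 20.4% and 29.6% of the members. Among all 14638 genes tested 33.0% were called higher and 23.5% lower, 56.4% in all, against 50% of the members. The median log2 fold change, corpuscle minus skin, was -0.25 for the members and 0.18 for all genes tested. The libraries of the tissues did not overlap in 19 members (35.2%) and in 41.3% of all genes tested. Called members without overlap numbered 5 higher and 14 lower, where 22.2% and 18.5% of all genes tested were so. Of the 11 higher members, 6 had a mean at or under 7.59 FPKM in corpuscles: B3GAT1, GPC6, HAS3, HS3ST5, HS6ST3 and NDST4. That level is the 95th percentile, in the corpuscle libraries, of 34 genes listed for organs other than skin, such as liver, retina and pituitary. Whether cells of the corpuscle express any of the 34 was not tested. Those genes were themselves called higher in corpuscles in 16 of 22 tests, and the rest of the 34 did not pass the filter on low counts. The log2 fold changes of those tested had a median of 3.0. Levels of the 34 had a median of 1.37 FPKM in corpuscles and 0.0973 FPKM in skin. B3GAT1, HS3ST5, HS6ST3 and NDST4 lay above that corpuscle median, and GPC6 and HAS3 below it. A call of higher at or under 7.59 FPKM was thus shared by genes of other organs. Of the 16 lower members, 11 also had a mean at or under 7.59 FPKM in corpuscles.

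**Figure D1:**
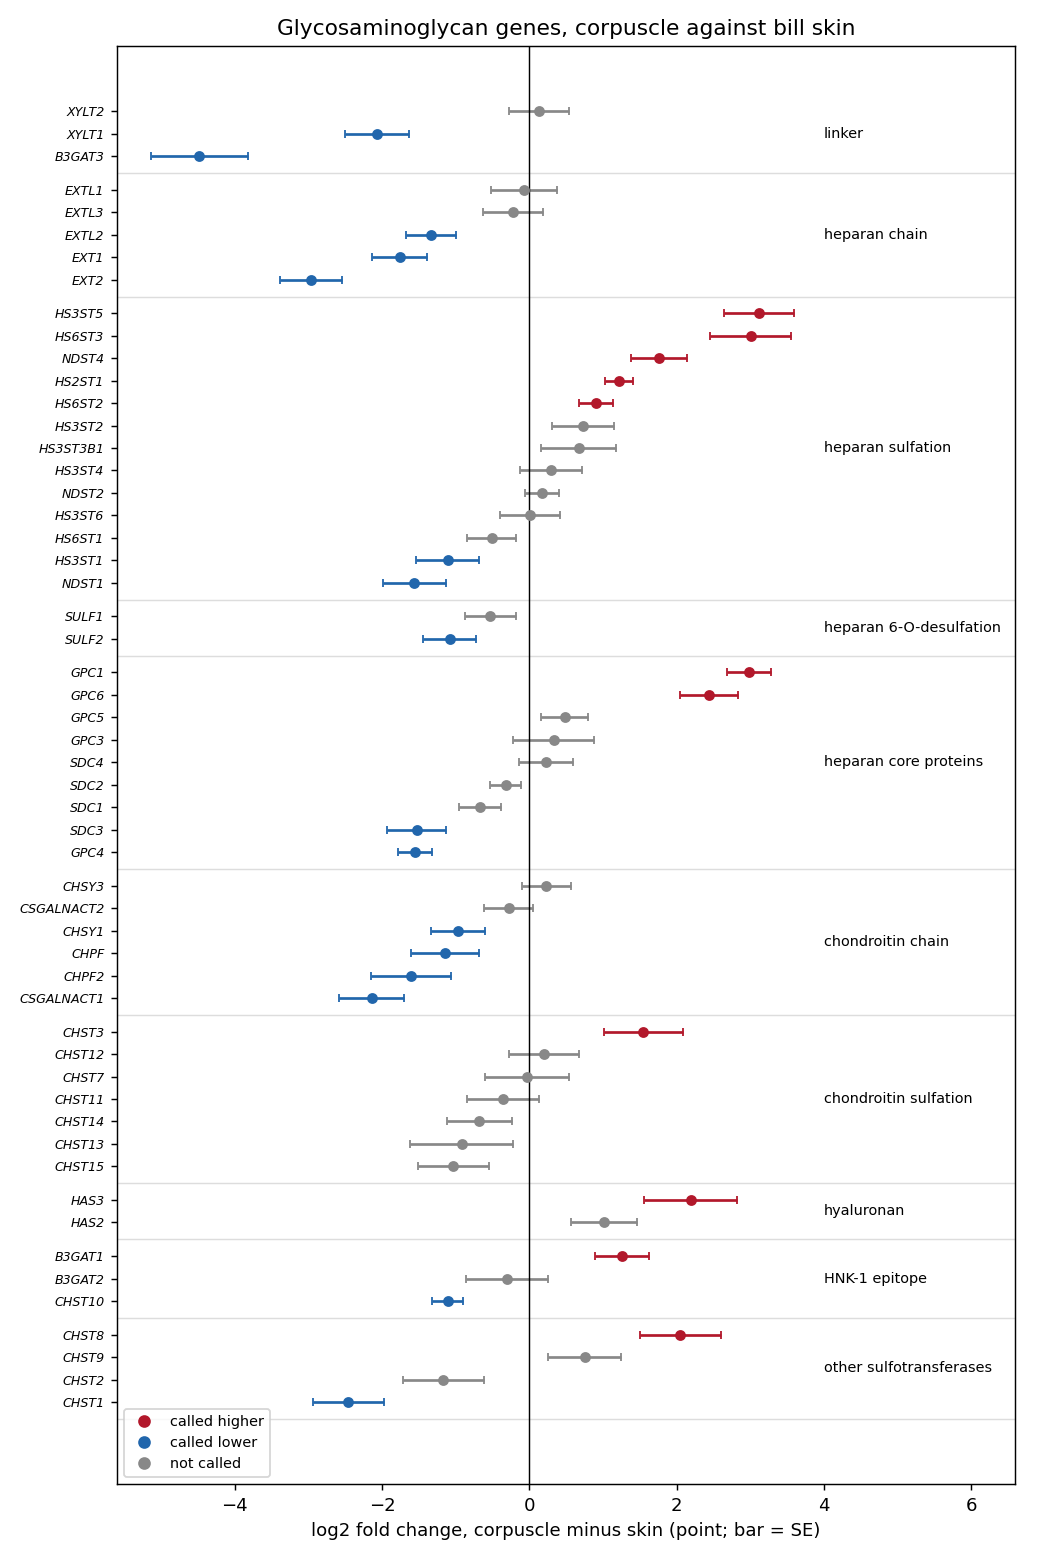
Log2 fold change of each of the 54 genes, corpuscle minus skin, with bars for SE, grouped by role; red and blue points passed the test (5 corpuscle and 6 skin libraries). Points of the linker, heparan chain and chondroitin chain groups that passed lie left of 0, while those of the heparan sulfation group that passed lie on both sides, 5 to the right and 2 to the left. Among all genes tested 33.0% were called higher and 23.5% lower.

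Reads of the whole group summed to 3888 to 7420 CPM in corpuscles and 3789 to 4127 CPM in skin, which overlap. One gene, GPC1, held 25.03% to 63.8% of that sum in corpuscles and 9.46% to 11.6% in skin. Without GPC1 the other members summed to 2341 to 2915 CPM in corpuscles and 3425 to 3650 CPM in skin, with no overlap. Reads of the heparan chain genes summed to 175 to 242 CPM in corpuscles against 568 to 619 CPM in skin. Reads of the heparan sulfation genes summed to 658 to 705 CPM against 472 to 505 CPM. The 2 sums did not overlap between tissues. Without HS2ST1, however, the other 12 sulfation genes summed to 357 to 489 CPM in corpuscles and 349 to 394 CPM in skin, which overlap.

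Glypican-1 (GPC1) had the highest length-scaled level of the 54 genes in corpuscles 1, 2, 3 and 5, and the second highest in corpuscle 4, after SDC2 (164 against 195 FPKM). Glypicans are heparan sulfate core proteins held to the outer membrane by a lipid anchor. GPC1 was at 4735, 3935, 3002, 973 and 3044 CPM in corpuscles 1 to 5, and at 363 to 477 CPM in skin with a median of 371 CPM. Corpuscle 4 was the lowest corpuscle and still above every skin library. The log2 fold change was 2.98 ± 0.30 (SE, edgeR adjusted p = 1.72e-06), and 2.77 to 3.21 when any 1 library was left out. Per length, the mean was 544 ± 250 FPKM (SD, n = 5) in corpuscles and 72.1 ± 8.31 FPKM (n = 6) in skin. The Merkel marker sum was also lowest in corpuscle 4 among the corpuscles, where CHGB alone gave 12605 of 14468 CPM. CHGB, KRT20 and ISL1 were lowest in corpuscle 4. ATOH1 was highest there (66.9 CPM), and the other listed markers were lowest in other corpuscles. Which cells carry the listed Merkel markers was not tested, and neither was the part of those cells in the level of GPC1.

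The other glypicans did not move together. GPC4 was at 65.1, 87.5, 72.6, 159 and 118 CPM in corpuscles 1 to 5 and at 280 to 321 CPM in skin (median 290 CPM). It was lower in every corpuscle library (log2 fold change -1.55 ± 0.23, edgeR adjusted p = 4.86e-05), and corpuscles 4 and 5 were the nearest to skin. GPC6 was at 9.50, 10.9, 4.45, 13.8 and 5.49 CPM against 1.17 to 2.25 CPM in skin (median 1.58 CPM). It was higher without overlap (2.44 ± 0.40, edgeR adjusted p = 9.96e-05), though its length-scaled level was 1.04 FPKM. That was below both the median (1.37 FPKM) and the 95th percentile (7.59 FPKM) of genes of other organs. Those genes were called higher in 16 of 22 tests. GPC3, which in mammals restrains growth signalling, was at 21.1, 24.8, 2.32, 3.65 and 9.82 CPM against 4.25 to 13.8 CPM in skin (median 10.6 CPM), overlapping widely (0.33 ± 0.55, edgeR adjusted p = 0.633; -0.094 without corpuscle 2). GPC5 was at 15.7, 13.4, 36.9, 32.2 and 20.6 CPM against 15.2 to 18.1 CPM (median 17.3 CPM), also overlapping (0.48 ± 0.32, edgeR adjusted p = 0.214). GPC1 thus made up 95.5 ± 4.08% (SD, n = 5) of the summed glypican FPKM in corpuscles and 64.2 ± 2.94% (n = 6) in skin, and GPC4 3.16 ± 3.59% and 31.4 ± 2.33%.

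Syndecans are heparan sulfate core proteins that span the membrane. SDC2, the most abundant syndecan in both tissues, was at 566, 502, 264, 638 and 456 CPM in corpuscles 1 to 5 and 555 to 687 CPM in skin (median 591 CPM). The tissues overlapped and the gene did not pass (log2 fold change -0.32 ± 0.21, edgeR adjusted p = 0.195). SDC3, the syndecan of neurons and Schwann cells, was at 111, 146, 54.8, 24.1 and 28.8 CPM against 190 to 248 CPM in skin (median 202 CPM). It was lower in every corpuscle library (-1.53 ± 0.40, edgeR adjusted p = 0.00436), and lowest in corpuscles 4 and 5. SDC1, the main syndecan of epithelia, was at 74.7, 94.1, 143, 40.9 and 136 CPM against 132 to 192 CPM (median 151 CPM). Its levels overlapped and it did not pass (-0.67 ± 0.28, edgeR adjusted p = 0.0562). It was called lower in 6 of 24 alternative fits, limma-voom among them (adjusted p = 0.0301), but not by DESeq2 (0.0909). The authors' deposited test also called it lower (false discovery rate 0.0365). Leaving out corpuscle 3 gave -0.85 (adjusted p = 0.0226), leaving out corpuscle 5 gave -0.82 (0.0289) and leaving out corpuscles 4 and 5 gave -0.58 (0.0323), each a call of lower. SDC4, found at focal adhesions, was at 70.7, 36.2, 92.5, 87.4 and 126 CPM against 32.4 to 148 CPM (median 63.1 CPM), and the tissues overlapped (0.23 ± 0.37, edgeR adjusted p = 0.628).

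Over syndecans and glypicans together the shares of GPC1, GPC4, GPC6, SDC1 and SDC3 did not overlap between tissues. Each share depends on the others, and the large share of GPC1 in corpuscles lowers the rest, so these are not separate results. In CPM, as given above, SDC1 overlapped between tissues and was not called. The shares of SDC2, SDC4, GPC3 and GPC5 overlapped. GPC1 held 66.2 ± 15.7% of the FPKM summed over syndecans and glypicans in corpuscles, from 38.7% in corpuscle 4 to 76.0%, and 15.9% to 18.2% in skin. SDC2 led in skin, at 45.1% to 53.7%, and held 11.9% to 46.2% in corpuscles. Corpuscle 4 was the corpuscle whose SDC2 share reached into the range of skin. SDC3 held 0.597% to 2.54% in corpuscles and 7.58% to 9.82% in skin. These shares describe single libraries and were not tested.

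**Figure D2:**
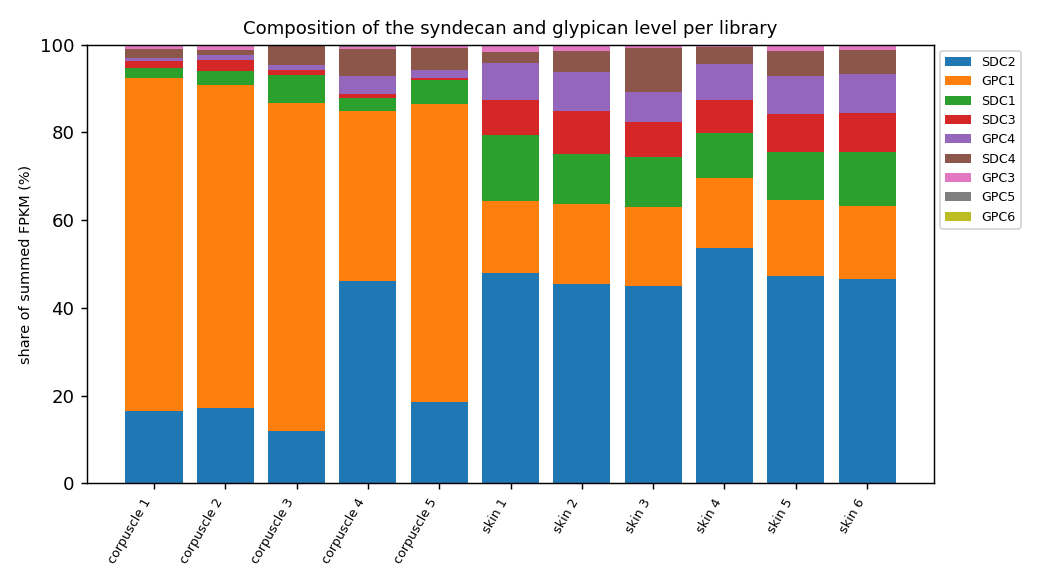
Share of each syndecan and glypican in their summed FPKM, in percent, for the 5 corpuscle and 6 skin libraries (1 bar per library). GPC1 makes up 38.7% to 76.0% of each corpuscle bar and 15.9% to 18.2% of each skin bar.

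**Figure D3:**
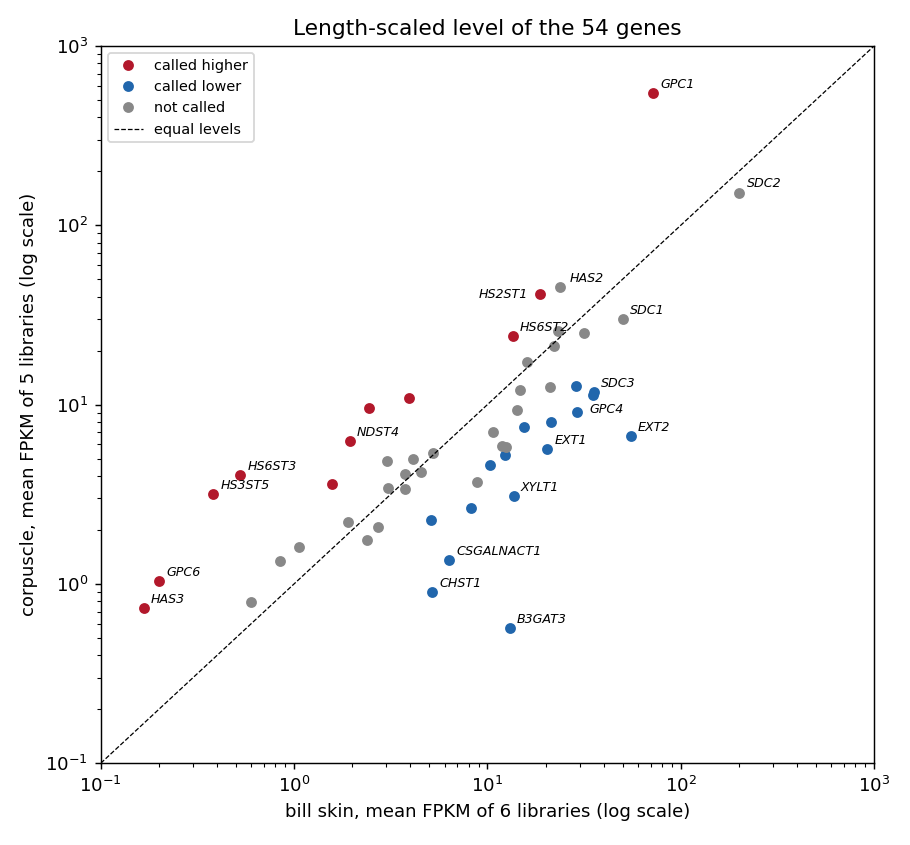
Mean FPKM of the 54 genes in corpuscles against skin on log axes, with equal levels on the dashed line; red and blue points passed the test. GPC1 stands at 544 against 72.1 FPKM, and B3GAT3 at 0.566 against 13.1 FPKM.

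The enzymes that start a chain were lower or did not pass. B3GAT3, which adds the glucuronic acid that completes the linker, had the lowest log2 fold change of the 54 genes. It had 1, 16, 1, 7 and 2 reads in corpuscles 1 to 5 (27 in all) and 1235 reads over the skin libraries. In CPM it was at 0.0888, 1.51, 0.0927, 1.11 and 0.180 in corpuscles, and at 10.9 to 14.9 in skin with a median of 12.9. The tissues lay far apart (-4.48 ± 0.66, edgeR adjusted p = 4.11e-05; -5.33 without corpuscle 2), and corpuscles 1, 3 and 5 were at or under the floor of 3 counts. The model of this gene is short, at 1015 bp against a median of 4347 bp for the members, and the part of length was not tested. XYLT1, a xylosyltransferase that places the first sugar of the linker, was at 13.4, 11.02, 10.7, 50.4 and 9.64 CPM against 69.4 to 95.2 CPM in skin (median 78.2 CPM). Corpuscle 4 was high among the corpuscles but below skin (-2.07 ± 0.43, edgeR adjusted p = 0.000773; -2.82 without corpuscle 4 and -2.76 without corpuscles 4 and 5). Its paralog XYLT2 averaged 24.9 ± 16.2 and, in skin, 22.7 ± 4.30 CPM and was not called (0.13 ± 0.41, adjusted p = 0.808). XYLT1 held 22.6% to 62.8% of the summed xylosyltransferase FPKM in corpuscles and 68.3% to 75.9% in skin.

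Of the 5 exostosin genes 0 were higher and 3 (60%) were lower, against 33.0% and 23.5% of all genes tested. EXT1 and EXT2 form the polymerase of heparan sulfate. EXT2 was at 23.6, 10.1, 83.4, 28.4 and 24.8 CPM in corpuscles 1 to 5 and at 256 to 281 CPM in skin (median 266 CPM). Even corpuscle 3, the highest corpuscle, lay far below skin (-2.97 ± 0.42, edgeR adjusted p = 2.65e-05; -3.63 without corpuscle 3). EXT1 was at 11.7, 32.3, 34.7, 83.1 and 51.4 CPM against 122 to 165 CPM (median 144 CPM). It was lower in every corpuscle library, with corpuscles 4 and 5 nearest to skin (-1.76 ± 0.37, edgeR adjusted p = 0.000856; -2.46 without corpuscles 4 and 5). EXTL2, which can cap the linker, was at 20.4, 14.7, 22.6, 57.1 and 18.3 CPM against 58.0 to 80.7 CPM (median 65.2 CPM). Corpuscle 4 came within 1 CPM of the lowest skin library (-1.33 ± 0.34, edgeR adjusted p = 0.00391). EXTL3, which starts the heparan chain, was at 88.1 ± 57.0 and 103 ± 11.6 CPM, and EXTL1 at 12.7 ± 11.1 and 13.3 ± 1.47 CPM; neither passed. EXT2 led the exostosin FPKM in every skin library, at 45.6% to 50.1%. The leading gene varied among corpuscles: EXTL3 in corpuscles 1, 2 and 5 (57%, 54.9% and 38.1%), EXT2 in corpuscle 3 (46.5%) and EXTL2 in corpuscle 4 (45.7%).

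**Figure D4:**
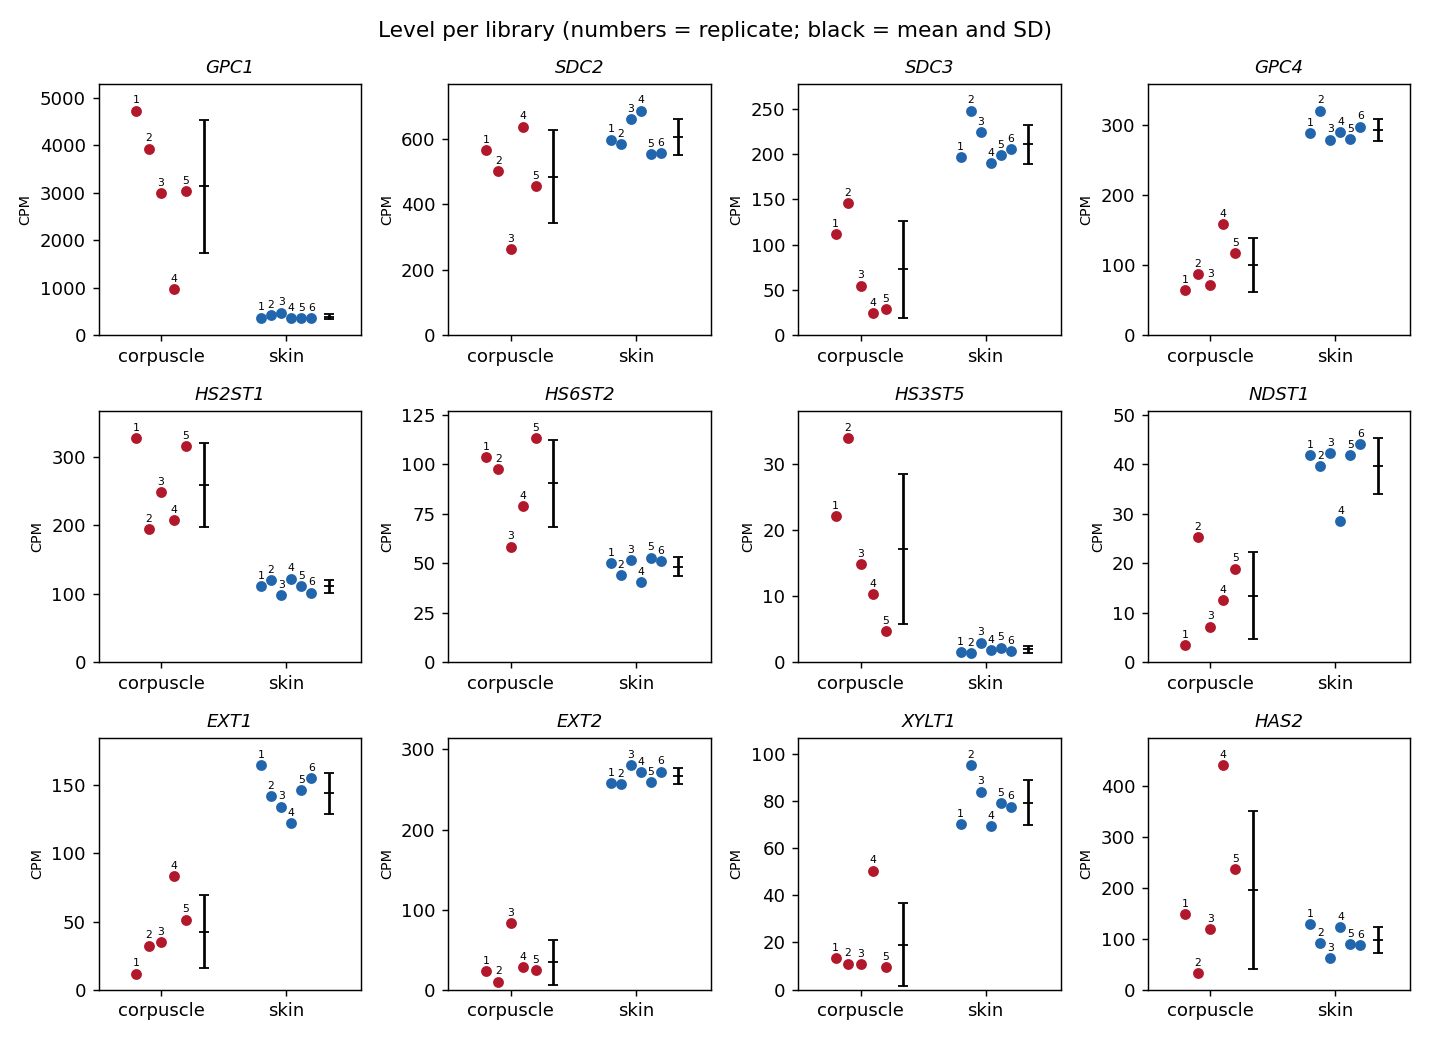
CPM of 12 genes in each library (points, numbered by replicate; black bars are mean and SD, 5 corpuscle and 6 skin libraries). GPC1, HS2ST1, HS6ST2 and HS3ST5 lie above skin in every corpuscle library; SDC3, GPC4, NDST1, EXT1, EXT2 and XYLT1 lie below; SDC2 and HAS2 overlap.

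Among the 13 heparan sulfotransferases 5 (38.5%) were higher and 2 (15.4%) were lower, against 33.0% and 23.5% of all genes tested. HS2ST1, the single enzyme that sulfates the uronic acids of heparan, was at 328, 195, 249, 208 and 315 CPM in corpuscles 1 to 5 and at 98.6 to 123 CPM in skin (median 111 CPM). The lowest corpuscle lay above the highest skin library (1.22 ± 0.19, edgeR adjusted p = 6.74e-05). At 41.4 ± 10.1 FPKM it had the fourth highest mean of the members in corpuscles, and it was the sixteenth in skin at 18.7 ± 1.62 FPKM. HS6ST2, which sulfates the 6-O position of glucosamine, was at 104, 97.6, 58.5, 79.1 and 113 CPM against 40.6 to 53.0 CPM (median 50.6 CPM). It did not overlap either (0.90 ± 0.23, edgeR adjusted p = 0.00353). Its paralog HS6ST3 was higher with overlap, at 27.5 ± 20.3 against 3.39 ± 0.874 CPM (3.01 ± 0.55, adjusted p = 0.00029), and corpuscle 5 lay inside the range of skin at 3.51 CPM. At 4.05 FPKM in corpuscles HS6ST3 was below 7.59 FPKM, the 95th percentile of genes of other organs. HS6ST1, which did not pass (-0.51 ± 0.33, adjusted p = 0.200), was at 76.9 ± 47.0 and 110 ± 12.6 CPM. The gene was called lower when corpuscle 4 was left out (-0.90, adjusted p = 0.012) and without corpuscles 4 and 5 (-0.77, adjusted p = 0.0308). HS6ST1 held 12.1% to 41.9% of the 6-O-sulfotransferase FPKM in corpuscles and 45.1% to 54.9% in skin.

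The enzymes that remove the acetyl group and add N-sulfate went both ways. NDST1, the widely expressed form, was at 3.46, 25.2, 7.23, 12.5 and 18.9 CPM against 28.5 to 44.0 CPM in skin (median 41.8 CPM). It was lower without overlap (-1.56 ± 0.43, edgeR adjusted p = 0.00603). NDST4 was at 39.9 ± 23.2 against 11.8 ± 1.68 CPM and was higher (1.76 ± 0.38, adjusted p = 0.00112), with corpuscle 4 at 12.8 CPM inside the range of skin. Its mean of 6.26 FPKM in corpuscles was below 7.59 FPKM, the 95th percentile of genes of other organs. NDST2 averaged 95.3 ± 30.2 CPM in corpuscles and 84.6 ± 2.48 CPM in skin and was not called (0.17 ± 0.23, adjusted p = 0.551), and was the most abundant of the 3 per length in both tissues. NDST1 held 2.87% to 18.0% of their summed FPKM in corpuscles and 24.9% to 33.3% in skin, and NDST4 14.7% to 33.7% and 6.45% to 9.23%.

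The 3-O-sulfotransferases add the rarest sulfate of heparan. HS3ST5 was at 22.1, 34.004, 14.8, 10.3 and 4.77 CPM in corpuscles 1 to 5 and at 1.40 to 3.00 CPM in skin (median 1.79 CPM). It was higher in every corpuscle library (3.12 ± 0.47, edgeR adjusted p = 5.04e-05), and at 3.16 FPKM it too was below 7.59 FPKM, where genes of other organs had a median log2 fold change of 3.0. HS3ST1, which can make an antithrombin binding site, was at 26.4, 2.54, 18.0, 20.5 and 15.7 CPM against 32.3 to 41.5 CPM (median 35.0 CPM). It was lower without overlap but near the threshold (-1.11 ± 0.43, edgeR adjusted p = 0.0372). Its call was lost without corpuscle 3 (adjusted p = 0.0522), without corpuscle 5 (0.060), without any 1 of the 6 skin libraries (0.0551 to 0.0711) and without corpuscles 4 and 5 (-1.20, adjusted p = 0.0585). HS3ST6, the most abundant of these genes per length in both tissues, averaged 27.1 ± 18.6 CPM in corpuscles and 26.8 ± 5.41 CPM in skin and was not called (adjusted p = 0.981). HS3ST2, HS3ST3B1 and HS3ST4 did not pass either, with log2 fold changes of 0.73, 0.67 and 0.30.

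**Figure D5:**
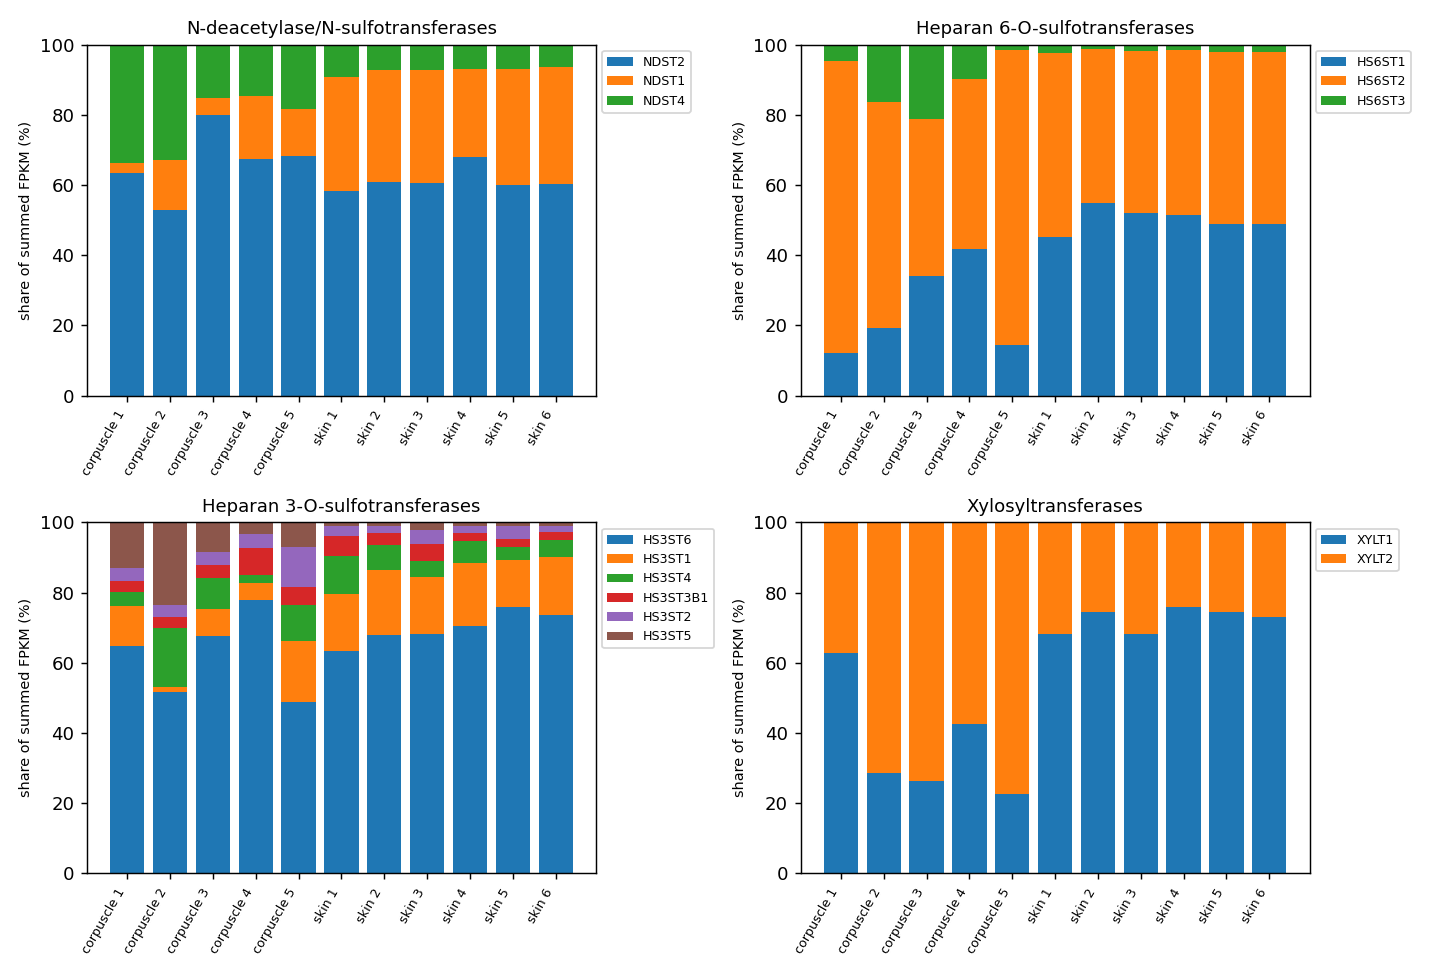
Share of each paralog in the summed FPKM of its enzyme family, in percent, per library (5 corpuscle and 6 skin libraries; 4 families). NDST1, HS6ST1 and XYLT1 take a smaller share in every corpuscle library than in any skin library, and NDST4, HS3ST5 and XYLT2 a larger one. XYLT1 and XYLT2 make up their family alone, so their shares are 1 result. Shares within the other families also depend on each other. In corpuscles XYLT1, XYLT2, NDST1, NDST4 and HS3ST5 had means of 3.08, 5.39, 2.64, 6.26 and 3.16 FPKM. These were below 7.59 FPKM, the 95th percentile of genes of other organs, and HS6ST1 was above it at 9.37 FPKM.

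SULF1 and SULF2 are secreted enzymes that remove 6-O-sulfate from finished chains. SULF2 was at 33.8, 35.6, 50.1, 59.9 and 9.73 CPM against 59.5 to 96.8 CPM in skin (median 80.3 CPM). It was lower (-1.08 ± 0.36, edgeR adjusted p = 0.0195), with corpuscle 4 just reaching the lowest skin library. SULF1 was at 17.7, 52.6, 114, 48.5 and 38.6 CPM against 72.6 to 84.4 CPM (median 79.8 CPM). Corpuscle 3 lay above skin and the other 4 below, and the gene did not pass (-0.53 ± 0.35, edgeR adjusted p = 0.214; -1.0, adjusted p = 0.0102, without corpuscle 3).

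Genes that lengthen chondroitin sulfate were lower in 4 of 6 cases (66.7%) and higher in 0, against 23.5% and 33.0% of all genes tested. CSGALNACT1, which commits a linker to chondroitin, was at 3.99, 2.26, 13.6, 5.87 and 4.05 CPM against 18.3 to 31.6 CPM in skin (median 27.2 CPM). It was lower in every corpuscle library (-2.14 ± 0.44, edgeR adjusted p = 0.000711). Its paralog CSGALNACT2 averaged 107 ± 56.8 CPM in corpuscles and 129 ± 15.6 CPM in skin and was not called (-0.28 ± 0.33, adjusted p = 0.491). CHPF2, a subunit of the chondroitin polymerase, was at 1.07, 32.7, 35.6, 36.3 and 28.1 CPM against 64.2 to 101 CPM (median 80.4 CPM). Corpuscle 1 stood far below the other corpuscles (-1.61 ± 0.54, edgeR adjusted p = 0.020). Another polymerase subunit, CHSY1, was at 35.0 ± 20.7 against 68.4 ± 7.14 CPM without overlap (-0.97 ± 0.37, adjusted p = 0.035). The CHSY1 call was lost when corpuscle 1 (-0.93, adjusted p = 0.065), corpuscle 3 (-0.86, adjusted p = 0.0752) or any 1 skin library was left out (adjusted p from 0.0515 to 0.0729), while the value was -1.71 without corpuscles 4 and 5. CHPF was at 16.4 ± 14.3 against 36.5 ± 5.20 CPM with overlap (-1.15 ± 0.46, adjusted p = 0.0425). The CHPF call held in 2 of the 11 fits that left out 1 library, those without corpuscle 2 (-1.84, adjusted p = 0.000596) and without skin 4. It was lost in the other 9, at log2 fold changes of -0.91 to -1.15 and adjusted p from 0.0639 to 0.0788, and also without corpuscles 4 and 5 (-0.92, adjusted p = 0.15). CHSY3 averaged 19.3 ± 7.85 and, in skin, 16.4 ± 3.25 CPM and was not called.

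The 7 chondroitin and dermatan sulfotransferases gave 1 gene (14.3%) that was higher and 0 that were lower, against 33.0% and 23.5% of all genes tested. CHST3, which makes 6-O-sulfated chondroitin, was at 31.7, 14.0, 5.19, 24.9 and 96.5 CPM in corpuscles 1 to 5 and at 9.10 to 14.4 CPM in skin (median 11.6 CPM). The range of the corpuscles enclosed that of skin (1.55 ± 0.54, edgeR adjusted p = 0.0232), and the call was lost without corpuscle 5 (0.68, adjusted p = 0.182) and without corpuscles 4 and 5 (0.52, adjusted p = 0.314). The 4-O-sulfotransferases CHST11, CHST12 and CHST13 had log2 fold changes of -0.36, 0.20 and -0.92. CHST13 passed as lower without corpuscle 5 (-2.37, adjusted p = 0.00247), the library in which it was highest at 33.7 CPM. The dermatan enzyme CHST14 was at 31.6 ± 19.4 and 50.7 ± 6.45 CPM (-0.68 ± 0.44, adjusted p = 0.205). CHST15 (-1.03 ± 0.48, adjusted p = 0.0804) passed without corpuscle 1 (-1.60, adjusted p = 0.00904). CHST7 had means of 26.4 ± 26.8 and 26.9 ± 3.61 CPM, from 3.80 CPM in corpuscle 3 to 68.3 CPM in corpuscle 4.

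HAS2 had a mean of 45.3 ± 35.1 FPKM in corpuscles against 23.8 ± 6.19 FPKM in skin. That mean was the third highest of the members in corpuscles, but over corpuscles 1 to 3 alone it was 23.7 FPKM and the sixth. It makes most of the hyaluronan of connective tissue. HAS2 was at 149, 32.9, 119, 441 and 237 CPM in corpuscles 1 to 5 and at 61.7 to 129 CPM in skin (median 90.4 CPM). Corpuscles 4, 5 and 1 lay above skin, corpuscle 3 within and corpuscle 2 below it, and the gene did not pass (1.01 ± 0.45, edgeR adjusted p = 0.0646). It was called higher in 6 of 24 alternative fits. Among these were DESeq2 (adjusted p = 0.0404), upper-quartile factors (0.0359), a mean of at least 5 CPM (0.0328) and thinning (0.0343). By limma-voom HAS2 was not called (0.55, adjusted p = 0.337). With corpuscle 2 left out it was called higher (1.28, adjusted p = 0.00493), and the value was 0.47 without corpuscle 4 and 0.047 (adjusted p = 0.923) without corpuscles 4 and 5. Corpuscles 4 and 5, the highest for HAS2, also had the highest fibroblast marker sums of the corpuscles, 45618 and 41735 CPM. Of the listed markers, PDGFRA was lowest in corpuscle 4 (74.2 CPM) and FBN1 highest in corpuscle 2 (246 CPM). The other fibroblast markers were highest in corpuscle 4 or 5. The part of fibroblasts in the level of HAS2 was not tested. The log2 fold change of HAS2 was -0.023 (adjusted p = 0.970) in the fit of corpuscles 1 to 3 with skin 1 to 4. It was 1.96 (adjusted p = 0.0192) for corpuscles 4 and 5 with skin 5 and 6. HAS3 was at 0.888, 2.17, 2.04, 3.96 and 2.07 CPM against 0.0624 to 1.05 CPM (median 0.500 CPM), with 103 reads over the corpuscles and 46 over skin. Corpuscle 1 overlapped skin (2.19 ± 0.63, edgeR adjusted p = 0.00766), and the length-scaled level was 0.734 FPKM, again below 7.59 FPKM.

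The name rule also took genes outside these pathways. HNK-1 is a sulfated sugar epitope of neural adhesion molecules, made by B3GAT1 or B3GAT2 and then sulfated by CHST10. CHST10 was at 42.2, 50.2, 50.7, 50.3 and 34.1 CPM in corpuscles 1 to 5 and at 86.4 to 116 CPM in skin (median 97.1 CPM). It was lower with no overlap and with little spread among corpuscles (-1.11 ± 0.21, edgeR adjusted p = 0.000408). B3GAT1 was higher, at 23.2 ± 13.2 against 9.69 ± 1.48 CPM (1.26 ± 0.37, adjusted p = 0.00955), with corpuscle 4 at 9.51 CPM inside the range of skin. Its mean of 3.59 FPKM in corpuscles was below 7.59 FPKM, the 95th percentile of genes of other organs. B3GAT2 averaged 2.96 ± 2.39 and, in skin, 3.68 ± 0.788 CPM and was not called. CHST1, which sulfates keratan sulfate, was lower at 1.77 ± 1.31 against 9.55 ± 2.34 CPM (-2.46 ± 0.48, adjusted p = 0.000443). CHST8, which sulfates N-glycans, was higher with overlap at 15.8 ± 11.3 against 3.82 ± 1.07 CPM (2.05 ± 0.55, adjusted p = 0.0053). CHST2 (-1.17 ± 0.55, adjusted p = 0.0842) was called lower once corpuscle 5 was left out (-2.23, adjusted p = 0.000314). CHST9 (0.75 ± 0.50, adjusted p = 0.212) was called higher once corpuscles 4 and 5 were left out (1.30, adjusted p = 0.00541).

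Genes of the same pathways that the name rule does not take were counted in lists. For scale beside the list counts here and below, 33.0% of all genes tested were called higher and 23.5% lower. Of 9 genes of linker and chain modification 0 were higher and 3 lower, with a median log2 fold change of -0.13. DSE, an epimerase that turns chondroitin into dermatan sulfate, was at 14.3 ± 5.61 against 66.6 ± 5.66 CPM (-2.21 ± 0.31, adjusted p = 2.34e-05). UST, the uronyl sulfotransferase of chondroitin and dermatan, was also lower (-1.28 ± 0.34, adjusted p = 0.00486). Of 18 genes that supply precursors and sulfate 2 were higher and 3 lower (median -0.04). One of the 2, SLC26A1, was at 1.39 FPKM in corpuscles, below 7.59 FPKM, the 95th percentile of genes of other organs. The nucleotide sugar carriers SLC35D1 (-2.77 ± 0.44, adjusted p = 7.83e-05) and SLC35D2 (-1.47 ± 0.49, adjusted p = 0.0195) were lower. PAPSS1, which makes the sulfate donor of all these sulfotransferases, was higher at 289 ± 105 against 154 ± 15.8 CPM (0.91 ± 0.24, adjusted p = 0.00432). Corpuscle 4, at 148 CPM, lay inside the range of skin (137 to 179 CPM). Its paralog PAPSS2, which makes the same donor, was not called (0.3 ± 0.33, adjusted p = 0.458).

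Other heparan sulfate core proteins were lower in 5 of 6 cases and higher in 0 (median log2 fold change -1.51). HSPG2 (perlecan), the core protein of basement membranes, was at 42.5 ± 10.1 against 802 ± 115 CPM (-4.24 ± 0.23, edgeR adjusted p = 1.5e-08). TGFBR3 (betaglycan), a coreceptor for TGF-beta, was at 141 ± 28.9 against 540 ± 93.5 CPM (-1.94 ± 0.20, adjusted p = 1.95e-06). Of 12 chondroitin sulfate core proteins and collagens 3 were higher and 5 lower (median -0.54). VCAN (versican), of loose connective tissue, was at 109 ± 47.0 against 1190 ± 184 CPM (-3.45 ± 0.29, adjusted p = 4.06e-07). NCAN (neurocan), of neural matrix, was at 13.5 ± 2.48 against 1.33 ± 0.677 CPM (3.33 ± 0.39, adjusted p = 5.97e-06), with 2.53 FPKM in corpuscles. That level was below 7.59 FPKM, the 95th percentile of genes of other organs. BCAN (1.43 FPKM) and SPOCK1 (5.46 FPKM), the other higher genes of the list, were below it too. The endothelial and fibroblast marker sums given above were lower in every corpuscle library too, and their part in these differences was not tested.

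Of 12 hyaluronan binding genes 5 were higher and 3 lower (median log2 fold change -0.08). Of the 5, HAPLN2, HAPLN4 and ITIH2 were at 2.97, 0.887 and 1.97 FPKM in corpuscles. Those levels were below 7.59 FPKM, the 95th percentile of genes of other organs. HAPLN1 and CD44 were above it, at 290 and 105 FPKM. HAPLN1, the link protein that fixes proteoglycans to hyaluronan, was at 1233, 945, 1063, 2272 and 2860 CPM in corpuscles 1 to 5 and at 173 to 305 CPM in skin (median 197 CPM). Every corpuscle library lay above skin (2.97 ± 0.30, edgeR adjusted p = 1.49e-06), and corpuscles 4 and 5 were highest, as they were for HAS2. CD44, a hyaluronan receptor, was higher at 694 ± 289 against 245 ± 28.6 CPM (1.5 ± 0.30, adjusted p = 0.000554), with corpuscle 4 at 186 CPM below skin. ITIH5, of a family that binds hyaluronan, was lower (-2.22 ± 0.58, adjusted p = 0.00448; -3.31 without corpuscle 3). Of 9 genes that cleave hyaluronan or act on heparan sulfate and its anchors 2 were higher and 3 lower (median -0.34). One of the 2, the hyaluronidase HYAL1, named after its values were seen, was at 41.4 CPM in corpuscle 5 and 2.23 to 14.4 CPM in the other corpuscles (1.68 ± 0.63, adjusted p = 0.0327). Its mean of 7.12 FPKM in corpuscles was below 7.59 FPKM, the 95th percentile of genes of other organs. Without corpuscle 5 it was not called (0.59, adjusted p = 0.328), and without corpuscles 4 and 5 it turned to -0.19 (adjusted p = 0.693). The other of the 2, SPAM1, was at 0.385 FPKM in corpuscles, also below 7.59 FPKM. HYAL2, a hyaluronidase, was at 2.07 ± 0.983 against 16.6 ± 2.68 CPM (-2.99 ± 0.38, adjusted p = 1.12e-05), and HPSE2, a heparanase homologue, at 32.5 ± 13.9 against 142 ± 39.4 CPM (-2.12 ± 0.33, adjusted p = 6.43e-05). Of 16 lysosomal breakdown genes 1 was higher and 3 lower (median -0.18), among them the sulfatase ARSK (-3.15 ± 0.43, adjusted p = 2.22e-05) and the iduronidase IDUA (-1.87 ± 0.57, adjusted p = 0.0114).

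The members varied more among corpuscles than among skin libraries. The median coefficient of variation was 65.0% in corpuscles and 14.3% in skin, and 51 of 54 members varied more in corpuscles. Over all genes tested the medians were 55.6% and 17.5%, and 88.1% varied more in corpuscles. Corpuscle 4 held the highest corpuscle value for 18 of the 54 members, and the other corpuscles for 8 to 10 each. The matching shares over all genes tested were not computed. In the fit of corpuscles 4 and 5 against skin 5 and 6 all 27 called members kept their direction, and 9 kept their call. Those were GPC1, GPC4, GPC6, SDC3, HS3ST5, EXT2, B3GAT3, CSGALNACT1 and HAS3. The same libraries also entered the fit that gave the 27 calls, so the shared direction is not independent of it. The labels do not group corpuscles 4 and 5 with skin 5 and 6.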

How the data were processed

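RNA was sequenced from 5 corpuscle and 6 bill skin samples. The authors deposited whole-number read counts for each gene, without scaling. The submitters' processing notes name STAR 2.7.7a, Trimmomatic 0.39, CASAVA 1.8.2, edgeR 3.38.4, R 4.2.1, Subread 2.0.1 and featureCounts. The build, the annotation and whether strand was used are not given in the sources used here. The authors also deposited a signal per gene, the normalized count, which is the count over a factor common to the library. Their deposited FPKM is that signal over the gene's length in kilobases. Their table adds a deposited log2 fold change, p-value and false discovery rate. At a false discovery rate under 0.05 it called 28 of the members, 11 higher and 17 lower in corpuscles.

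The test of corpuscle against skin was the robust quasi-likelihood fit of edgeR 4.0.16 (R 4.3.3) over all 11 libraries, with TMM factors, the filterByExpr filter and no covariate. P-values were adjusted over all 14638 genes tested. CPM is on TMM-scaled library sizes, SD is over libraries, and SE is the log2 fold change over the root of the F statistic. Levels of different genes are compared by FPKM. Sums of reads over genes, and the parts of GPC1 and CHGB in such sums, are in CPM and not scaled to length. Floors cover counting error only. Tested on simulated data for corpuscle against skin over 14638 genes, the fit recovered 67% of 100 genes changed 4-fold and 10% of 100 changed 2-fold, with 3 false calls among 80. Only these planted genes were changed, all at a mean of 5 CPM or more, whereas 56.4% of genes were called in the data. The simulated rates therefore hold for that setting and not for the fit reported. Replicates differed by more than sampling noise (lowest chi-square per degree of freedom 11.6).

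Per-library values are given for called members that do not overlap and reach 10 CPM, up to 12 in each direction, and for syndecans, glypicans, HAS and SULF genes; pathway lists name the 2 called genes with the largest change at 10 CPM or more. PAPSS1, SLC26A1, CD44, HAPLN2, HAPLN4, ITIH2, HYAL1, SPAM1, BCAN and SPOCK1 were named after their values were seen. The same holds for the per-library values of CHST3. Members, lists and tests were chosen with earlier results of these data known. Alternatives were limma-voom (limma 3.58.1), DESeq2 1.42.0, other filters and scalings, a replicate block, thinning, leaving out 20 abundant genes, a test against 2-fold and leaving out libraries. Of 4214 locus identifiers 3196 were found by gene ID among RefSeq's Pekin duck genes, whose coordinates were not used. Sequences are not used here. Figures were drawn with matplotlib 3.10.9.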

Additional observations from a re-analysis of the deposited data

Results flagged for a closer look

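In 13 of 108 sets of libraries (54 genes in 2 tissues) 1 library lay far from the others of its tissue by Dixon's test at the 95% level. Chance alone passes that level in about 1 in 20 sets only where values are normally distributed. Whether CPM values are so was not tested. The share of sets flagged over all genes was not computed, so the count is not a trait of these members. Among corpuscles, CHPF2 was low in corpuscle 1 at 1.07 CPM, with 28.1 CPM in the nearest library. CHPF was high in corpuscle 2 at 41.2 CPM (nearest 13.2 CPM), and EXT2 in corpuscle 3 at 83.4 CPM (nearest 28.4 CPM). Corpuscle 4 was high for EXTL2 at 57.1 CPM (nearest 22.6 CPM), XYLT1 at 50.4 CPM (nearest 13.4 CPM) and HS3ST3B1 at 17.3 CPM (nearest 4.27 CPM). Corpuscle 5 was high for CHST2 at 35.2 CPM (nearest 10.4 CPM) and CHST13 at 33.7 CPM (nearest 7.14 CPM). In skin, replicate 4 was low for EXTL3 at 79.8 CPM (nearest 104 CPM), CHPF at 26.3 CPM (nearest 36.1 CPM) and NDST1 at 28.5 CPM (nearest 39.5 CPM). CHST11 was high in skin 2 at 15.8 CPM (nearest 13.0 CPM), and SDC4 in skin 3 at 148 CPM (nearest 67.9 CPM).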

How the results depend on the processing

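Of the 27 called members, 19 kept their call under every alternative that tested them other than the test against a 2-fold change and the fits within a split of the libraries. CHPF, CHPF2, CHSY1, HS3ST1, CHST3, CHST8, SULF2 and B3GAT1 lost it under at least 1. Against a 2-fold change 7 members were higher and 7 lower, with 4571 of all genes called and 25 pathway genes, against 8263 and 38 in the fit reported. Within corpuscles 4 and 5 and skin 5 and 6, a smaller fit, 5 members were higher and 5 lower, with 5290 genes called. Upper-quartile factors moved the median of all genes by 0.15 and limma-voom by -0.23 on the log2 scale.

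Same-numbered libraries did not deviate together (correlations of 0.0671, 0.0678, 0.0409, -0.178 and 0.182), so the numbers were not taken as pairs. Skin 6 was the skin library that correlated best with both corpuscle 4 and corpuscle 5. The fit with replicate number as a block left out skin 6, which had no corpuscle of the same number. Without skin 6 and with no block 7536 genes were called. With replicate number as a block 7005 genes were called, and 24 of the 27 members kept their call. CHST3, CHST8 and B3GAT1 lost it, and CHST15, CHST2 and CHST13 gained one.

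Signs reversed in genes that were not called and in 1 called gene, HYAL1; the cause was not tested. Without corpuscles 4 and 5 the log2 fold change was 0.006 for CHST11, 0.00014 for EXTL3, 0.12 for CSGALNACT2, -0.18 for CHST12, -0.19 for HS3ST6 and HYAL1, -0.48 for XYLT2, -0.036 for HS3ST3B1 and -0.09 for SDC4. Within corpuscles 1 to 3 and skin 1 to 4 it was -0.023 for HAS2, 0.027 for EXTL3, 0.13 for CSGALNACT2, -0.0048 for CHST12, -0.033 for HS3ST6, -0.54 for XYLT2, -0.16 for HS3ST3B1, -0.14 for SDC4 and -0.054 for HYAL1. Within corpuscles 4 and 5 and skin 5 and 6 it was 0.23 for CHST7, 0.016 for SDC2, -1.15 for CHST9, 0.12 for B3GAT2, -0.0012 for NDST2, -0.52 for GPC3, -0.059 for HS3ST6, -0.04 for HS3ST4, 0.70 for EXTL1 and -0.38 for CHSY3. CHST7 was at 0.025 with RLE factors, 0.17 with upper-quartile factors, 0.24 at a mean of at least 5 CPM and 0.027 by DESeq2, and EXTL1 at 0.077 and 0.16 under the upper-quartile and 5 CPM settings. By limma-voom GPC3 was at -0.098, CHST12 at -0.17, HS3ST6 at -0.27 and XYLT2 at -0.18, and with the replicate block these were -0.048, -0.14, -0.17 and -0.14. Without the filter HS3ST6 was at -0.069. Leaving out 1 library gave -0.75 to 0.24 for CHST7, -0.54 to 0.047 for EXTL3, -0.094 to 0.59 for GPC3, -0.37 to 0.44 for CHST12, -0.45 to 0.25 for HS3ST6, -0.10 to 0.51 for HS3ST4, -0.30 to 0.36 for XYLT2, -0.17 to 0.87 for HS3ST3B1, -0.75 to 0.11 for EXTL1 and -0.032 to 0.41 for CHSY3.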

Other observations

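A locus outside the name rule carries the RefSeq symbol CHST4, a sulfotransferase of lymphocyte homing ligands in mammals. It was at 1.15, 1.79, 0.927, 5.23 and 1.62 CPM in corpuscles 1 to 5 and at 0 to 0.312 CPM in skin. The libraries did not overlap (log2 fold change 3.81 ± 0.74, edgeR adjusted p = 0.000456), and its 0.486 FPKM in corpuscles was below 7.59 FPKM, the 95th percentile of genes of other organs.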
